A study of Mus musculus with 10 samples.

Results

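The clustered protocadherins are cell-surface cadherins of neurons whose genes lie side by side in the alpha, beta and gamma clusters on mouse chromosome 18. All protein-coding genes in the deposited table whose symbol begins with Pcdha, Pcdhb or Pcdhg were taken, which gave 56 genes out of 25905: 13 alpha, 22 beta and 21 gamma genes. They were measured by RNA-seq of ribosome-depleted total RNA in 5 right and 5 left retinas of wild-type C57BL/6J mice, numbered 61, 64, 65, 66 and 68, at postnatal day 34. Every animal had carried a −20 D lens, used to induce myopia, on one eye for 10 days from postnatal day 24, and the fellow eye had no lens. Since the labels record the side of a retina and are silent on which side carried the lens, the comparison is right against left within a mouse, and no retina is called treated or control.

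In the alpha and gamma clusters, each gene contributes its own large variable exon, which encodes the extracellular cadherin repeats, the membrane span and the first part of the cytoplasmic tail, and this exon is spliced to constant exons that the whole cluster shares. Beta genes are single large exons with no constant region. Most neurons switch on a small set of variable exons, chosen through CTCF and cohesin and kept silent elsewhere by promoter methylation, whereas the so-called C-type isoforms at the ends of the alpha and gamma clusters are expressed more uniformly. The proteins bind copies of themselves on other membranes with high specificity. In mouse retina, the gamma cluster is needed for starburst amacrine dendrites to avoid their own branches and for the survival of many interneurons and ganglion cells.

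On GRCm38 the alpha genes spanned bases 36930184 to 37187661 of chromosome 18, the beta genes 37264938 to 37524479 and the gamma genes 37661793 to 37841873, all on the plus strand. The alpha members had 2860 exonic bases in common, in 3 blocks between 37156155 and 37187657. The gamma members had 2116 exonic bases in common, in 3 blocks between 37825021 and 37841870. No exonic base was common to all beta members. Stretches of 100 bases were taken from the longest protein-coding transcript of each gene. In alpha members, a median of 55.5% of them (47.7% to 96.5%) also occurred in transcripts of another gene. This share was 44.1% in gamma members (40.7% to 64.002%) and 0.207% in beta members (0% to 7.73%). The highest share belonged to Pcdha4, whose stretches were also found to 43.9% in the predicted gene Gm42416.

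The clusters also differed in whether their values were whole counts. A deposited value of a gene in CPM (counts relative to the size of the library) was a whole multiple of the value of 1 count, within a tolerance of 0.1 counts, in 120961 of 142100 values of the 14210 tested genes (85.1%). The beta members came near that level, with 177 of 220 values whole (80.5%). Only 27 of 130 alpha values (20.8%) and 42 of 210 gamma values (20%) were whole, and a spread of fractions with no preference would give 20%. Among beta members, 9 had whole values in all 10 libraries, and 8 of these 9 held no stretch of 100 bases found in another gene. The other 13 had a fractional value in at least 1 library, and 12 of these 13 did hold such a stretch, Pcdhb3 being the exception. How reads of shared exons were assigned to genes is not stated in the labels or the file. The split of reads between single alpha or gamma isoforms is therefore uncertain. A sum over a cluster is free of that split as long as each read was counted once and stayed within the cluster, which was not tested. Every gamma member had 10.6% to 11.6% of its stretches in common with the long noncoding RNA gene Gm38182, which lies outside the family and was listed at 0 CPM in the right retinas and at 0 to 0.0452 CPM in the left retinas. Gm42416 was listed at 0.0399 to 0.657 CPM in right retinas and 0.0255 to 0.566 CPM in left retinas.

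**Figure D1:**
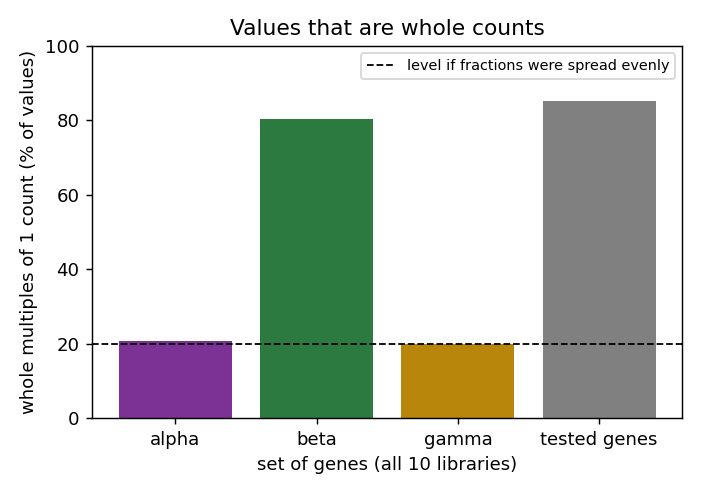
Share of deposited values that were whole multiples of 1 count (bars, % of values over 10 libraries, y axis from 0) for the alpha, beta and gamma members and for all 14210 tested genes. The dashed line marks 20%, where fractions spread evenly would fall; the alpha (20.8%) and gamma (20%) bars reach it, and the beta bar (80.5%) stands close to all tested genes (85.1%).

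The identity of one alpha gene is also uncertain. The gene listed as Pcdha11 starts at 37005203, where RefSeq places a gene named Pcdha10 (start 37005320), and GENCODE M21 gives the symbol Pcdha11 both to that gene and to its neighbour, which starts at 37010712. The table has a single Pcdha11 entry and no Pcdha10 entry, and whether the entry holds reads of one gene or of both is not known. Pcdhgb8, annotated as a polymorphic pseudogene, was not a member by biotype. It had 6.98 ± 0.546 CPM (SD, n = 10) and draws on the same gamma constant exons. The gamma sums and shares leave out its CPM, so they may miss reads of these exons.

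Across the libraries, 1 CPM stood for 89.7 to 113.8 counts. The listed genes held 321661 to 346696 CPM, so most of the counts that CPM is relative to lay outside them. Of the libraries, the right retina of mouse 65 carried lens transcripts, with a summed level of 7 lens genes of 805.5 CPM, against 24.2 CPM in the lowest and a median of 48.3 CPM over the right retinas, and 7.32 to 44.3 CPM in left retinas. The left retina of mouse 68 carried muscle transcripts, with 54.02 CPM over 5 muscle genes, against 1.43 to 3.25 CPM in right retinas and a median of 2.12 CPM over the left retinas. For mouse 64, the labels mention a damaged raw file of its right retina. Retinal markers were present in every library. None of the 176 entries of the gene lists, with some genes in several lists, was at 0 in all 10 libraries. The 7 starburst amacrine markers, which include Chat and Slc18a3, summed to 64.7 to 72.4 CPM in right retinas and 64.01 to 75.2 CPM in left retinas. The 8 ganglion cell markers summed to 202.7 to 229.6 CPM in right retinas and 201.6 to 242.6 CPM in left retinas. Among the marker genes, 1 differed between mice, the rod gene Nr2e3 (adjusted p of 0.0043 by limma with Benjamini-Hochberg adjustment). In whole retinas, fewer cells of a type and less RNA per cell cannot be told apart.

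All 3 clusters were expressed in the retina. The alpha members summed to 45.9, 46.8, 49.8, 49.2 and 47.7 CPM in the right retinas of mice 61, 64, 65, 66 and 68, and to 44.8, 41.4, 46.1, 46.7 and 47.1 CPM in their left retinas. The beta members summed to 162.3, 154.6, 172.1, 147.6 and 161.7 CPM in the right retinas and to 165.7, 144.8, 167.6, 150.1 and 156.5 CPM in the left retinas, in the same order of mice. The gamma members summed to 250.3, 252.4, 261.5, 261.3 and 274.7 CPM in the right retinas and to 269.0, 248.7, 258.6, 251.1 and 257.8 CPM in the left retinas. In each cluster the ranges of the sides overlapped, and the lowest of the 10 sums was from the left retina of mouse 64 in the alpha, the beta and the gamma cluster alike. Gamma members made up 55.8% of the family's summed CPM (54.1% to 57.2% over 10 libraries), beta members 34.1% (32.2% to 35.6%) and alpha members 10.0% (9.34% to 10.7%). Divided by the length of all exons of a cluster, the order was the same, with 3.78 CPM per kb for gamma, 1.72 CPM per kb for beta and 1.29 CPM per kb for alpha.

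**Figure D2:**
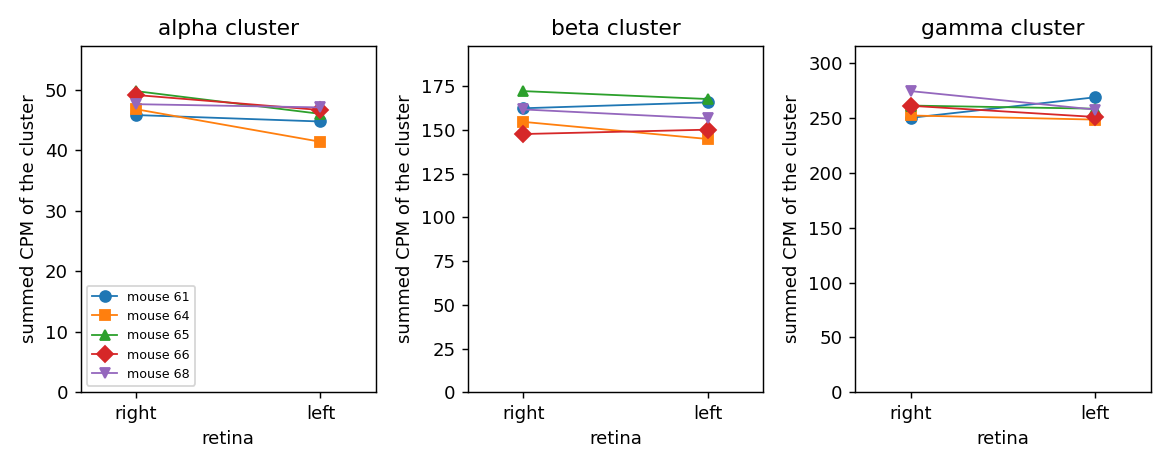
Summed CPM of the alpha, beta and gamma members (y axes from 0) in the right and left retina of each of 5 mice; a line joins the retinas of a mouse. The alpha sum was higher on the right in 5 of 5 mice, the gamma sum in 4 of 5 and the beta sum in 3 of 5, and the ranges of the sides overlapped in each panel.

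On the log2 scale the alpha sum differed between right and left by 0.08 (SE 0.03 over 5 mice), with 47.9 ± 1.63 CPM in right retinas and 45.2 ± 2.29 CPM in left retinas (SD, n = 5 each). It was higher on the right in 5 of 5 mice, by 0.03, 0.18, 0.11, 0.07 and 0.02 in mice 61, 64, 65, 66 and 68, the largest step being that of mouse 64. The beta sum averaged 159.7 ± 9.20 CPM in right retinas and 156.9 ± 9.82 CPM in left retinas, a difference of 0.03 (SE 0.02). The gamma sum averaged 260.03 ± 9.62 CPM in right retinas and 257.04 ± 7.94 CPM in left retinas, a difference of 0.02 (SE 0.03). These sums are descriptions and were not tested, because the genes were chosen as a family. By type of isoform, alpha 1 to 12 summed to 35.1 ± 1.12 CPM in right retinas and 32.9 ± 1.94 CPM in left retinas. The 2 alpha C-types summed to 12.7 ± 0.656 CPM in right retinas and 12.3 ± 1.44 CPM in left retinas. The gamma A genes summed to 143.6 ± 4.90 CPM in right retinas and 142.5 ± 6.55 CPM in left retinas, and the gamma B genes to 85.6 ± 3.92 CPM in right retinas and 84.5 ± 2.996 CPM in left retinas. The 3 gamma C-types summed to 30.8 ± 1.78 CPM in right retinas and 29.98 ± 0.592 CPM in left retinas. In each of these types the difference of the means was within the sum of the SDs of the sides. That yardstick ignores the pairing by mouse. Within mice, alpha 1 to 12 differed by 0.10 (SE 0.03) on the log2 scale, and was higher on the right in 5 of 5 mice. The alpha C-types differed by 0.05 (SE 0.06, 3 of 5 mice higher on the right). Gamma A differed by 0.01 (SE 0.04, 4 of 5), gamma B by 0.02 (SE 0.03, 3 of 5) and gamma C-types by 0.04 (SE 0.04, 4 of 5).

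Within the alpha cluster, levels differed widely among members, from 0.114 CPM per kb of exon for Pcdha1 to 1.59 CPM per kb for the entry named Pcdha11. The median was 0.535 CPM per kb over 13 members. Pcdha11 had 8.28, 8.41, 8.92, 9.81 and 8.49 CPM in the right retinas of mice 61, 64, 65, 66 and 68, and 8.91, 7.89, 8.05, 7.90 and 8.34 CPM in the left retinas, and the sides overlapped. It was the highest alpha member per kb in 9 of 10 libraries. Its 2 possible source genes are described above, so its rank may not be that of a single isoform. Pcdha9 had 4.21 ± 0.335 CPM in right retinas and 3.92 ± 0.365 CPM in left retinas, and Pcdha7 had 4.05 ± 0.608 CPM in right retinas and 3.82 ± 0.291 CPM in left retinas. Their levels of 0.76 CPM per kb for Pcdha9 and 0.74 CPM per kb for Pcdha7 lay within their SDs of one another. At the low end, Pcdha3 had 1.70 ± 0.361 CPM in right retinas and 1.73 ± 0.172 CPM in left retinas, and Pcdha2 had 1.29 ± 0.24 CPM in right retinas and 1.10 ± 0.225 CPM in left retinas. Pcdha1, the most upstream gene, was lowest in all 10 libraries at 0.329 to 0.821 CPM, and was under the level required for testing.

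The alpha C-types stood among the higher alpha genes. Pcdhac2, known in mouse for the tiling of serotonergic axons, had 7.29, 8.77, 8.36, 9.10 and 8.67 CPM in the right retinas of mice 61, 64, 65, 66 and 68, and 7.52, 7.30, 7.85, 10.1 and 7.55 CPM in the left retinas. The left retina of mouse 66 stood above the other 9 libraries. Per kb of exon, Pcdhac2 had 1.40 CPM, second to Pcdha11. Pcdhac1 had 4.31 ± 0.536 CPM in right retinas and 4.26 ± 0.367 CPM in left retinas, or 0.79 CPM per kb, close to Pcdha9.

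Levels of alpha members followed their order along the chromosome, with lower levels upstream and higher levels downstream. The Spearman correlation between position and CPM per kb was 0.87 over 13 genes. In the beta cluster it was 0.79 over 22 genes. It was 0.82 there when exons shared with another clustered protocadherin gene were left out of the length. The gamma cluster had no such order, with 0.05 over 21 genes. These are descriptions across genes, which share libraries, neighbours and, in the alpha and gamma clusters, constant exons, and they carry no test.

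**Figure D3:**
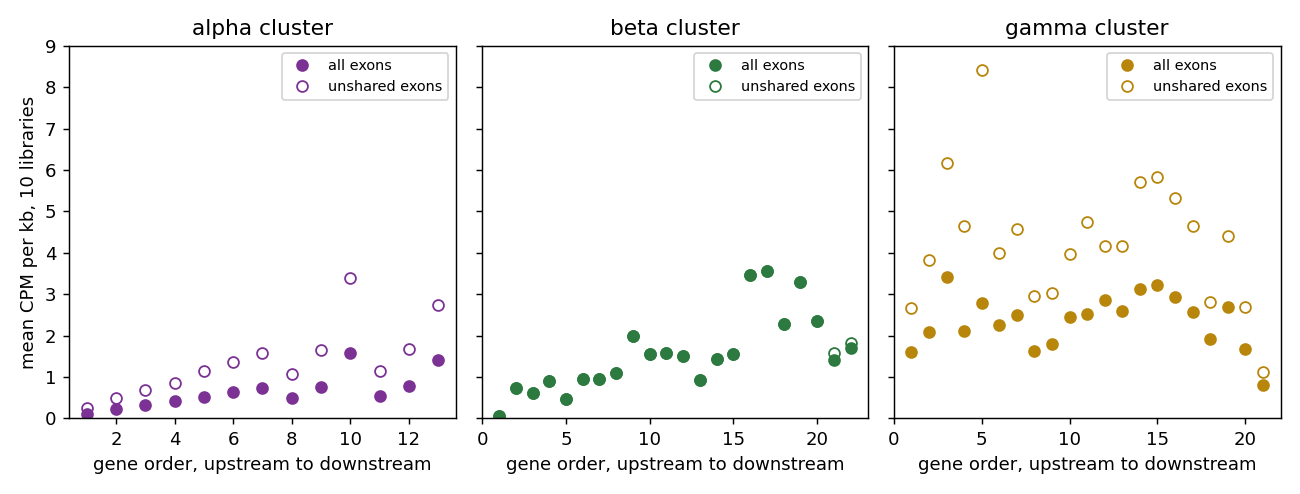
Mean CPM per kb over 10 libraries (y axis, from 0) against the order of a gene in its cluster, upstream to downstream (x axis). Filled points use the length of all exons. Open points use the length of exons that no other clustered protocadherin gene shares, with the same CPM. Levels increased downstream in the alpha and beta clusters and not in the gamma cluster, where open points lie above filled points because shared exons are taken out of the length.

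Beta members spanned the widest range of levels, from 0.0509 CPM per kb for Pcdhb1 to 3.55 CPM per kb for Pcdhb17, with a median of 1.47 CPM per kb. Pcdhb1, which sits first in the cluster, had 0.0278 to 0.29 CPM and was under the level required for testing. The 3 highest genes per kb lay in the downstream part of the cluster: Pcdhb17, Pcdhb16 at 3.47 CPM per kb and Pcdhb19 at 3.28 CPM per kb. Pcdhb18, which lies between Pcdhb17 and Pcdhb19, had 2.27 CPM per kb. For the 3 highest genes, in the order given, the SDs over libraries were 0.234, 0.312 and 0.197 CPM per kb. Genes next to one another in level differed by less than their SDs. The gap between Pcdhb17 and Pcdhb19 was wider than the SD of either gene. Pcdhb19 had 23.6, 23.2, 25.8, 21.3 and 23.2 CPM in the right retinas of mice 61, 64, 65, 66 and 68, and 24.8, 23.1, 23.8, 21.2 and 24.3 CPM in the left retinas, with no separation of the sides. Pcdhb16 had 18.7 ± 1.65 CPM in right retinas and 17.6 ± 1.62 CPM in left retinas, and Pcdhb17 had 16.4 ± 0.682 CPM in right retinas and 16.7 ± 1.46 CPM in left retinas. Pcdhb16 held no stretch of another gene and had whole values in all 10 libraries. The lowest tested beta members were Pcdhb5, with 1.63 ± 0.214 CPM in right retinas and 1.70 ± 0.34 CPM in left retinas, and Pcdhb2, with 2.02 ± 0.301 CPM in right retinas and 2.11 ± 0.339 CPM in left retinas. Pcdhb21 and Pcdhb22 overlap one another, and their split is uncertain.

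Gamma members were the most even among themselves, from 0.808 CPM per kb for Pcdhgc5 to 3.40 CPM per kb for Pcdhga3, with a median of 2.50 CPM per kb. How reads of their shared constant exons were divided is not known, so the evenness of single gamma isoforms is uncertain. Of the gamma A genes, Pcdhga3 had 16.1 ± 1.71 CPM in right retinas and 16.0 ± 1.36 CPM in left retinas. Pcdhga10 had 15.4 ± 0.967 CPM in right retinas and 15.04 ± 0.606 CPM in left retinas. Per kb, Pcdhga10 had 3.21 ± 0.165 CPM and Pcdhga3 had an SD of 0.309 CPM (n = 10), so that the gap between them was wider than the SD of Pcdhga10 and narrower than that of Pcdhga3. The lowest gamma A genes were Pcdhga6, with 7.80 ± 0.809 CPM in right retinas and 7.61 ± 0.985 CPM in left retinas, and Pcdhga1, with 8.54 ± 0.534 CPM in right retinas and 8.70 ± 0.496 CPM in left retinas. The gamma B genes lay close together, between 2.11 CPM per kb for Pcdhgb1 and 3.13 CPM per kb for Pcdhgb6. Pcdhgb5 had 19.2 ± 0.694 CPM in right retinas and 19.2 ± 0.881 CPM in left retinas, and Pcdhgb6 had 14.8 ± 1.25 CPM in right retinas and 14.5 ± 1.08 CPM in left retinas. Pcdhgb4 had 14.3 ± 0.758 CPM in right retinas and 14.1 ± 0.928 CPM in left retinas. The lower levels in CPM were those of Pcdhgb1, with 12.4 ± 0.761 CPM in right retinas and 11.98 ± 0.835 CPM in left retinas, and Pcdhgb2, with 11.3 ± 0.572 CPM in right retinas and 10.8 ± 0.917 CPM in left retinas.

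The gamma C-types differed from one another in level. Pcdhgc3 had 13.1, 15.6, 16.7, 15.2 and 16.0 CPM in the right retinas of mice 61, 64, 65, 66 and 68, and 13.2, 14.1, 14.3, 15.4 and 14.95 CPM in the left retinas, or 2.70 CPM per kb. Pcdhgc4, the gamma isoform on which the survival of inhibitory interneurons depends in mouse, had 8.95, 8.995, 9.45, 10.7 and 8.99 CPM in the right retinas and 10.4, 9.58, 8.73, 8.29 and 9.83 CPM in the left retinas, or 1.68 CPM per kb. Pcdhgc5 had 5.84, 6.19, 6.55, 5.61 and 6.26 CPM in the right retinas and 6.06, 6.51, 6.15, 6.49 and 5.97 CPM in the left retinas, and was lowest per kb of all gamma members in 10 of 10 libraries. The sides overlapped in all 3 genes. With exons shared among clustered protocadherin genes left out of the length, the median gamma member had 4.16 CPM per kb. The medians were 1.53 CPM per kb for beta and 1.154 CPM per kb for alpha. The CPM still held the reads of the shared exons, which raises gamma and alpha levels more than beta levels. The clusters are therefore not compared like for like by this measure.

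**Figure D4:**
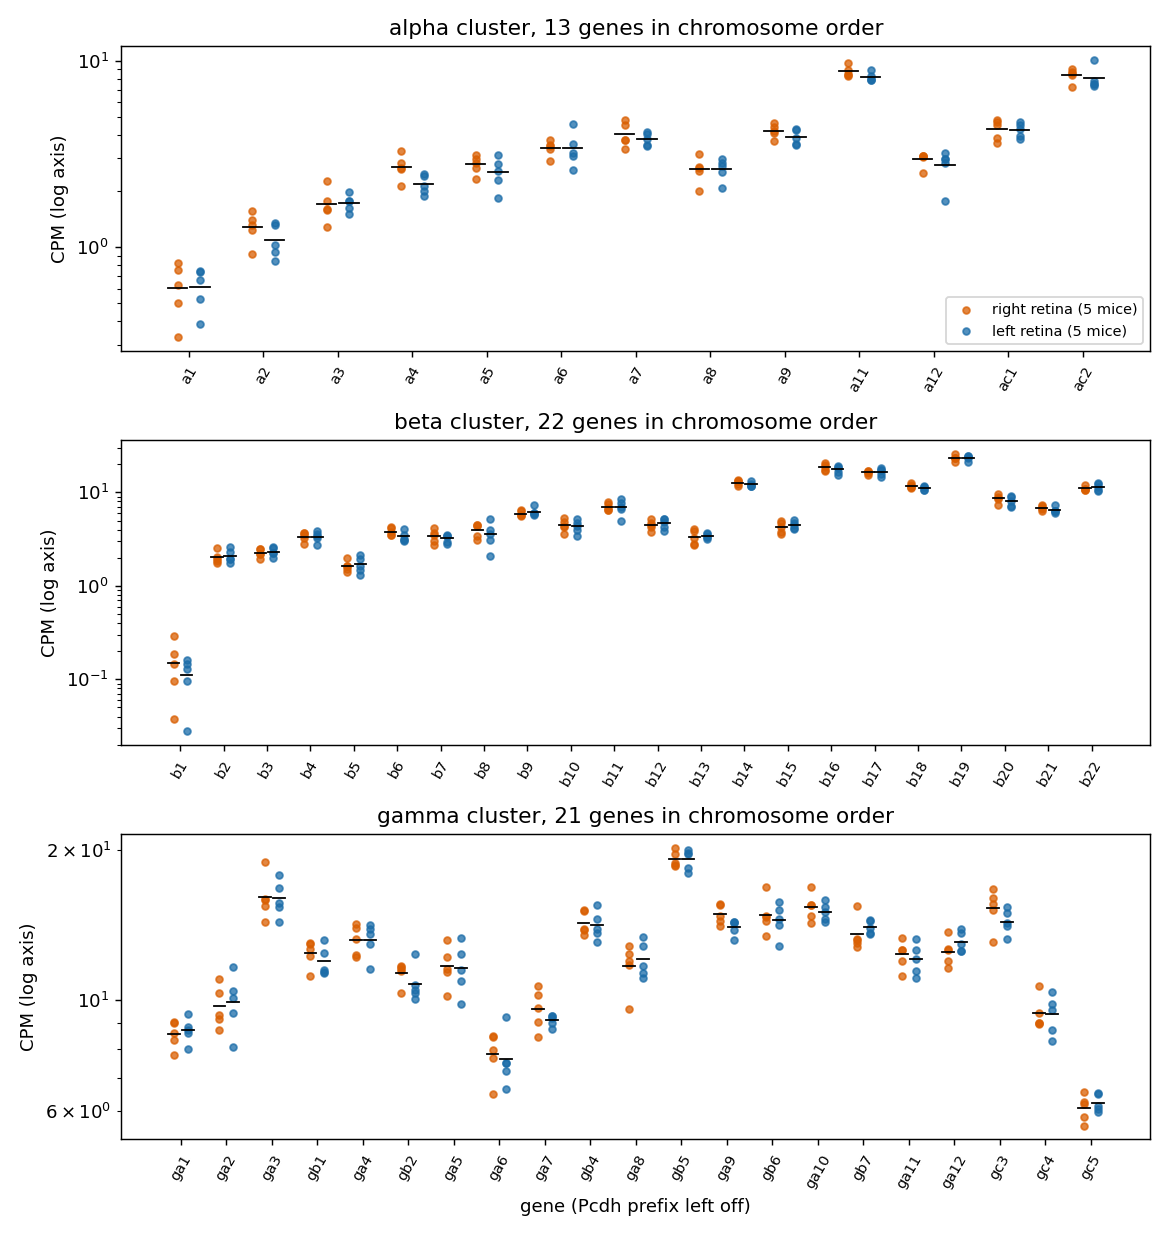
CPM of each of the 56 members (y axis, log scale) in chromosome order within the alpha, beta and gamma clusters. Points are single retinas, with the 5 right retinas of a gene left of the 5 left retinas, and bars mark the means. Pcdha1 and Pcdhb1 lie below 1 CPM, and the points of the sides overlap in all 54 tested members.

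The order of members was kept from one retina to the next. Over the 45 pairs of libraries, the Spearman correlation of levels per kb among members had a median of 0.95 in the alpha cluster (lowest 0.84), 0.96 in the beta cluster (lowest 0.93) and 0.94 in the gamma cluster (lowest 0.88). These values describe the genes of these libraries and are not replicates of one another. As a share of the cluster's CPM, Pcdha11 took 18.3% and Pcdhac2 17.7% of the alpha cluster, Pcdhb19 14.8%, Pcdhb16 11.5% and Pcdhb17 10.5% of the beta cluster, and Pcdhgb5 7.42% of the gamma cluster. The gamma share ran down to 2.39% for Pcdhgc5.

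The comparison of right with left asked whether any isoform differed between fellow eyes in a constant direction. None of the 54 tested members passed limma's moderated test at an adjusted p of 0.05, and neither did any of the 14210 tested genes (0%), the smallest Benjamini-Hochberg adjusted p of a member being 0.9996. At an unadjusted p under 0.05, 1 member (Pcdha4) and 333 of all tested genes (2.34%) stood out. Differences of members ran from −0.08 to 0.22 on the log2(CPM + 1) scale, with SEs of 0.04 to 0.09. The 95% interval spanned 0 for 53 of 54 members, and for 47 of 54 it lay within ±0.25 on this scale, which understates differences of low genes. With a pseudocount of 0.1 CPM in place of 1 CPM, 38 of 54 intervals lay within ±0.25. With the pseudocount of 1 CPM, the widest bounds of any member were −0.24 and 0.40. No member had sides that did not overlap, against 41 of all tested genes (0.289%).

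More members were higher on the right than lower, 35 of 54 (64.8%) against 51.1% of all tested genes. The median difference was 0.02 over the members and 0.00 over all tested genes. By cluster, 10 of 12 alpha members were higher on the right with a median of 0.07, 14 of 21 gamma members with a median of 0.02, and 11 of 21 beta members with a median of 0.01. Members come from the same retinas, and alpha and gamma members share constant exons, so they are not independent observations. Counts of members, here and by mouse, are descriptions and carry no test. Markers of fibroblasts, pigment epithelium and lens were also higher on the right on average, 0 of them past the adjusted test, and their part in these counts and in the cluster sums was not tested. Of 5 fibroblast markers, 4 were tested and 4 were higher on the right with a median of 0.36, and the 5 summed to 10.5 to 16.2 CPM in right retinas and 6.58 to 10.9 CPM in left retinas. Of the 5 pigment epithelium markers, 5 were higher on the right with a median of 0.22, and summed to 22.2 to 33.9 CPM in right retinas and 21.4 to 28.6 CPM in left retinas. All 7 lens markers were higher on the right, with a median of 1.49, whereas the 3 tested muscle markers were all lower, with a median of −0.68. No marker of these lists was at 0 in all libraries. The direction was not the same in every mouse. In mouse 61, 19 of 54 members were higher on the right, where 38.0% of all tested genes were, and in mouse 64 the figures were 34 of 54 and 44.1%. In mouse 65 they were 34 of 54 and 62.7%, in mouse 66 they were 29 of 54 and 60.4%, and in mouse 68 they were 38 of 54 and 47.1%. Gamma members had the widest change from mouse to mouse, with 4 of 21 higher on the right in mouse 61 and 17 of 21 in mouse 68. Without mice 65 and 68 together, the animals of the lens-rich and the muscle-rich library, 31 of 54 members were higher on the right, with a median of 0.01 against −0.01 over all tested genes. Without mouse 61, 41 of 54 were higher on the right, with a median of 0.04 against 0.01 over all tested genes, and with scaling to the sum of the listed genes 38 of 54 were, with 0.03 against 0.01. In each case 0 members passed the test.

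The alpha isoform Pcdha4, like most alpha isoforms, is known to reach the cell surface poorly unless a beta, gamma or C-type partner carries it there. It had 2.14, 3.28, 2.83, 2.67 and 2.64 CPM in the right retinas of mice 61, 64, 65, 66 and 68, and 2.0004, 2.12, 2.41, 1.87 and 2.46 CPM in the left retinas. The right retina was higher in 5 of 5 mice, but the right retina of mouse 61 fell within the range of the left retinas. The difference was 0.22 (SE 0.08, 95% interval 0.05 to 0.40) with an adjusted p of 0.9996 by limma with Benjamini-Hochberg adjustment. As given above, 96.5% of its stretches of 100 bases are shared with other genes, so its level is uncertain. Pcdhb6 was the other member higher on the right in 5 of 5 mice, as 395 of all tested genes were (2.78%). It had 4.11, 3.49, 3.73, 3.46 and 4.30 CPM in the right retinas and 4.09, 3.13, 3.02, 3.17 and 3.53 CPM in the left retinas, which overlapped, a difference of 0.14 (SE 0.06). A lower level on the right in all mice was seen in 0 members and in 286 of all tested genes (2.01%).

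The next members by unadjusted p lay closer to 0. Pcdhgc3 averaged 15.3 ± 1.36 CPM in right retinas and 14.4 ± 0.826 CPM in left retinas, a difference of 0.08 (SE 0.05), and Pcdhga9 averaged 14.9 ± 0.65 CPM in right retinas and 13.999 ± 0.481 CPM in left retinas, also 0.08 (SE 0.05). In the other direction, Pcdhga12 averaged 12.5 ± 0.802 CPM in right retinas and 13.1 ± 0.608 CPM in left retinas (−0.06, SE 0.05). Pcdhb15 averaged 4.24 ± 0.588 CPM in right retinas and 4.51 ± 0.406 CPM in left retinas (−0.08, SE 0.07). Pcdhgb7 averaged 13.6 ± 1.08 CPM in right retinas and 14.01 ± 0.423 CPM in left retinas (−0.05, SE 0.05), and Pcdhb22 averaged 11.1 ± 0.521 CPM in right retinas and 11.5 ± 1.06 CPM in left retinas (−0.05, SE 0.05). The ranges of right and left retinas overlapped in all 6 genes.

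**Figure D5:**
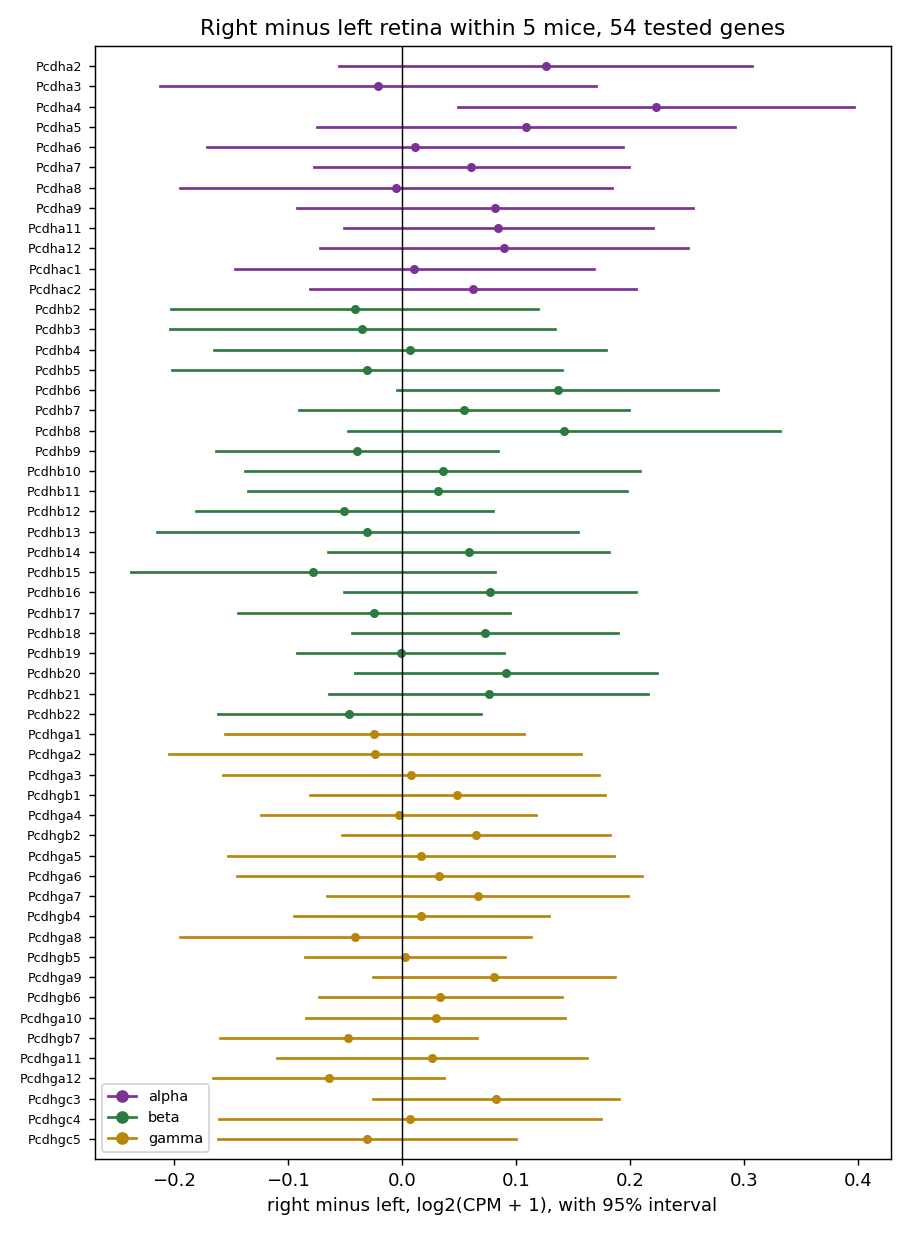
Right minus left on the log2(CPM + 1) scale (x axis) with its 95% interval for the 54 tested members, grouped by cluster in chromosome order from top to bottom. The interval of Pcdha4 (0.05 to 0.40) is the one that does not span 0, and no member passed the adjusted test.

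Because the lens may have been on either side, the size of the difference between fellow eyes was also described without regard to direction. Over the 5 mice, the root mean square difference had a median of 0.14 log2 units over the members (0.05 to 0.27) and 0.13 over all tested genes. On the log2(CPM + 1) scale, which understates differences of low genes, it was 0.19 for alpha, 0.15 for beta and 0.12 for gamma members. Their counting error had the same order, and a link was not tested. The coefficient of variation over 10 libraries had a median of 14.4% in alpha, 11.1% in beta and 6.99% in gamma members, where counting alone would give 5.76%, 4.75% and 2.91%. The ratio of the observed to the counting variation had a median of 2.31 over the members and 2.41 over all tested genes. The highest ratio was 4.51 for Pcdhb8 and the lowest 1.21 for Pcdhgc5. The counting variation treats each value as a count. Most alpha and gamma values were fractional, so for these clusters it is only a rough guide.

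Between mice, none of the 54 members passed limma's moderated F-test, and 81 of all tested genes did (0.57%). At an unadjusted p under 0.05 there were 6 members, 5 of them beta and 1 alpha, of 54, against 1964 of all tested genes (13.8%). The smallest Benjamini-Hochberg adjusted p of a member by limma was 0.196, for Pcdhb8. Pcdhb8 had 4.36, 3.46, 4.44, 3.08 and 4.45 CPM in the right retinas of mice 61, 64, 65, 66 and 68, and 5.15, 3.11, 3.63, 2.07 and 3.92 CPM in the left retinas. Mouse 66 was lowest on both sides and mouse 61 had the highest left retina. Pcdhb12 had 4.44, 3.75, 5.22, 4.28 and 4.71 CPM in the right retinas and 5.18, 3.89, 5.25, 4.27 and 4.79 CPM in the left retinas, with mouse 64 lowest and mouse 65 highest on both sides. Pcdha12 had 3.07, 2.50, 3.04, 3.11 and 3.08 CPM in the right retinas and 3.20, 1.77, 2.98, 2.96 and 2.84 CPM in the left retinas, where mouse 64 was again lowest on both sides. Pcdhb11 had 7.45, 6.49, 7.94, 6.48 and 6.87 CPM in the right retinas and 6.60, 5.00, 8.53, 6.97 and 7.62 CPM in the left retinas. The mouse took a median of 66.8% of the sum of squares of a beta member, 56.5% of an alpha member and 41.1% of a gamma member, against 56.1% over all tested genes. The side took 4.15% over the members and 3.33% over all tested genes. The mouse takes a large share even where mice do not differ, because each mouse has its own mean from few libraries. The side takes a smaller share in the same way. The percentages are therefore only compared with those over all tested genes, and do not measure an effect on their own.

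Genes that act on or beside the protocadherins showed no side difference past the test either, with 0 genes called in each of the lists below. Of CTCF and cohesin genes, 13 of 13 were tested and 10 were higher on the right, with a median of 0.01. Pds5a, a cohesin regulator, averaged 57.6 ± 2.16 CPM in right retinas and 56.1 ± 1.37 CPM in left retinas, and the related Pds5b averaged 39.5 ± 1.89 CPM in right retinas and 38.5 ± 0.968 CPM in left retinas. Of the genes of DNA methylation and promoter silencing, 11 of 12 were tested and 4 were higher on the right, with a median of −0.02. The methyltransferase Dnmt3b, which methylates protocadherin promoters in mouse embryos, averaged 1.17 ± 0.21 CPM in right retinas and 1.32 ± 0.369 CPM in left retinas. The repressor Rest averaged 12.1 ± 0.815 CPM in right retinas and 11.7 ± 1.17 CPM in left retinas. Of the signalling and processing partners, 26 of 27 were tested and 15 were higher on the right, with a median of 0.01. Cyfip2, a member of the WAVE complex that regulates actin, averaged 84.2 ± 3.91 CPM in right retinas and 81.4 ± 3.68 CPM in left retinas. The sorting nexin Snx2 averaged 12.5 ± 0.731 CPM in right retinas and 13.2 ± 0.951 CPM in left retinas. Of the genes beside the locus, 13 of 16 were tested and 6 were higher on the right, with a median of −0.01. Among them, Tmco6 averaged 3.03 ± 0.478 CPM in right retinas and 2.73 ± 0.392 CPM in left retinas.

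The non-clustered protocadherins, single genes outside the alpha, beta and gamma arrays, behaved likewise, with 11 of 12 tested, 7 higher on the right and a median of 0.01. Pcdh19, mutated in a human epilepsy, was higher on the right in 5 of 5 mice, with 11.6 ± 0.395 CPM in right retinas and 10.7 ± 0.397 CPM in left retinas, a difference of 0.11 (SE 0.05), and did not pass the adjusted test. Pcdh1 averaged 10.9 ± 1.33 CPM in right retinas and 11.6 ± 1.17 CPM in left retinas. Pcdh12 was under the level required for testing, at 0.0376 to 0.185 CPM. Of 18 other self-avoidance and lamination molecules, 18 were tested and 8 were higher on the right, with a median of −0.00. Dscam, which keeps dendrites of mouse amacrine and ganglion cells apart, averaged 18.1 ± 0.736 CPM in right retinas and 18.9 ± 0.514 CPM in left retinas. Cntn2 averaged 3.83 ± 0.465 CPM in right retinas and 4.20 ± 0.401 CPM in left retinas.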

How the data were processed

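The authors deposited a table of CPM (counts relative to the size of the library, with no correction for gene length) with 0.0001 added to every value. The unit was read from the values, and per the submitters' processing notes STAR and Partek were used on GRCm38 (mm10). Their versions and the counting rule are not stated there. The step between low values gave the count behind 1 CPM, and counting variation computed from it covers counting error only.

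The members and the gene lists were chosen with earlier results of these data known. Genes averaging 1 CPM or more over the 10 libraries (14210) were fitted with limma 3.58.1 in R 4.3.3 (moderated variances with a trend, two-sided) on log2(CPM + 1), a scale that understates the change of low genes, with the mouse as a block. P-values were adjusted by Benjamini-Hochberg over all tested genes, with a threshold of 0.05. The fit was tested on simulated data, with added side differences larger than that of any member. Whether it would find smaller differences was not tested. The block rests on the titles, in which a number marks an animal. Across genes, deviations of fellow retinas from their side means correlated at 0.607, 0.143, 0.166, 0.172 and 0.311 in mice 61, 64, 65, 66 and 68. Exons, lengths and stretches of 100 bases came from GENCODE M21, and gene ends are 1 base before the deposited stop.

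Named with values were, in each type of isoform, the 3 highest and 2 lowest tested members by mean CPM, all C-types, the 4 members of lowest unadjusted p per direction and between mice, and 2 genes of lowest p in each list on protocadherin biology. Alternatives were other pseudocounts, filters and scalings, no block, limma-voom on implied counts, other lengths per kb, and leaving out each mouse, or mice 65 and 68 together. Limma-voom and the last of these were added after seeing the data.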

Additional observations from a re-analysis of the deposited data

Results flagged for a closer look

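Of the 118 groups of 5 retinas (56 genes and 3 cluster sums on each side), 9 had a retina far from the other 4, and chance alone gives about 5% of such groups. Pcdha12 was lowest in mouse 64 on both sides, with 2.50 CPM in its right retina (others 3.04 to 3.11 CPM) and 1.77 CPM in its left retina (others 2.84 to 3.20 CPM). Pcdhgb2 was also lowest in the right retina of mouse 64, with 10.3 CPM (others 11.4 to 11.7 CPM), and was highest in the left retina of mouse 61, with 12.4 CPM (others 10.1 to 10.7 CPM). Mouse 65 had the highest right retina for Pcdhb22, with 11.96 CPM (others 10.7 to 11.0 CPM). It also had the highest left retina for Pcdhb9, with 7.28 CPM (others 5.73 to 5.98 CPM), and for Pcdhb21, with 7.27 CPM (others 6.09 to 6.32 CPM). Pcdhgb7 was highest in the right retina of mouse 68, with 15.5 CPM (others 12.8 to 13.3 CPM). Pcdhac2 was highest in the left retina of mouse 66, with 10.1 CPM (others 7.30 to 7.85 CPM).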

How the results depend on the processing

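No member passed the side test or the mouse test under any alternative run, and no gene at all passed the side test. Without the replicate block 0 genes passed the side test, with 188 at an unadjusted p under 0.05 (1 member), and it changed no other call. Limma-voom likewise called 0 genes, with 336 at an unadjusted p under 0.05. The number of genes differing between mice ranged from 23 to 88 when each mouse was left out in turn, against 81 with all mice, and it was 23 without mouse 61, 39 without mouse 68, 53 without mouse 66 and 41 without mice 65 and 68 together. Pcdhb15 turned to 0.0103 without mice 65 and 68 together. The Pcdha4 difference ran from 0.10 with a pseudocount of 5 CPM to 0.33 with limma-voom, and its unadjusted limma p was 0.069 without mouse 64 and 0.059 without mouse 66. The gamma sum differed by −0.00 without mouse 68, −0.01 without mice 65 and 68 together and 0.05 without mouse 61, so its direction is not settled, and the beta sum by 0.0079 without mouse 64 and 0.0389 without mouse 61, against 0.0252 with all mice. The alpha sum stayed between 0.06 and 0.10. The median level per kb moved with the length used: alpha 1.00 per coding kb and 1.154 per unshared kb, beta 1.89 per coding kb, and gamma 4.43 per coding kb and 4.16 per unshared kb. The full CPM of a gene was divided by each length. The other 157 recomputed values of single genes kept their direction and their side of the threshold. At 89.7 to 113.8 counts per CPM, Pcdhb1 rested on a mean of 12.4 counts per library. A change of length or pseudocount changes the scale of a value. The cause of the other shifts was not tested.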
